A study of Mus musculus with 18 samples.

Results

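The complement genes C3, C4b, C1qa, C1qb, C1qc, C1ra, C2, Cfb and Cfi were followed across the kidneys of undefeated, defeated and defeated fluoxetine-treated mice. They were taken by gene name from the deposited table, in which all 9 names were found among 32675 genes, and all 9 passed the filter on low counts. Bulk RNA sequencing was performed on right kidneys of male wild type C57BL/6 mice, labelled 6-week, with 3 groups of 6 mice. Ctrl mice were handled daily and not defeated. The PBS group (StressPbs) was exposed to aggressive CD-1 males in a chronic social defeat stress (CSDS) protocol and injected daily with phosphate-buffered saline. The FLX group (StressFlx) underwent the same CSDS and received daily intraperitoneal fluoxetine, a selective serotonin reuptake inhibitor. No injection of Ctrl mice is described and there was no undefeated group given fluoxetine, so defeat and injection cannot be told apart in PBS versus Ctrl, and a drug response without stress was not measured.

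Complement is a cascade of plasma and tissue proteins that marks surfaces for uptake, recruits leukocytes and can perforate membranes. The classical pathway starts with C1q and its proteases and runs through C4 and C2, the alternative pathway runs on factor B, and both converge on cleavage of C3, which factor I (Cfi) limits. Most circulating complement is made by the liver, while C1q comes largely from macrophages and dendritic cells, and kidney tubule cells make some components themselves. C1qa, C1qb and C1qc lie side by side on chromosome 4, from 136880129 to 136898803 of GRCm38, and C4b, Cfb and C2 lie on chromosome 17 within 34728380 to 34898265, in the class III part of the major histocompatibility complex.

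Estimated counts per mouse summed to 48928823 to 52073640 in FLX replicates 3 to 6 and to 72149987 to 79061296 in the other mice, and the least counted value of any of the 9 genes was 199 counts. Sums of 8 proximal tubule markers were 1464 to 3662 FPKM (fragments normalised to gene length and to library size), so the libraries carried the labelled tissue. PBS replicate 6 stood apart, with the lowest of these sums, 49.2 FPKM of Lcn2, a gene of injured tubules and neutrophils, against 0.985 to 4.42 in the other PBS mice, and the highest level of C3, C1qb, C1qc and C1ra of all 18 mice. The study set aside an unnamed PBS mouse for its inflammatory genes, and since complement belongs to that kind of gene all 6 PBS mice were kept here, with values without PBS replicate 6 alongside. Adipoq, an adipocyte gene, ranged from 0.334 to 103 FPKM, with over 10 FPKM in Ctrl replicates 1 and 6, PBS replicates 1 and 5 and FLX replicates 2 and 5.

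Compared per length, Cfb was the highest of the 9 genes in the kidney. Over the 18 mice it averaged 106 FPKM, above 97.7% of the genes tested. C1qb (20.4 FPKM), C1qa (19.2) and C3 (12.1) followed, then C1qc (8.28), C2 (6.94) and C1ra (5.76), and Cfi (2.69) and C4b (2.49) were lowest. The place of C3 rested on a few PBS and FLX mice: its median over all mice was 5.70 FPKM, below C1qc (7.49) and C2 (6.87), and in Ctrl mice its median of 3.62 FPKM was also below that of C1ra (4.39). The ranges of C1qa and C1qb overlapped in every group, as did those of Cfi and C4b, so that the order within either pair was not separable, and C3 overlapped with C1qc, C2 and C1ra over the 18 mice. The genes also differed in steadiness. The highest mouse exceeded the lowest 1.6 times for Cfb and 29.6 times for C3, with 13.7 times for C4b, 4.75 times for Cfi and 2.54 to 2.95 times for the other 5 genes.

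**Figure D1:**
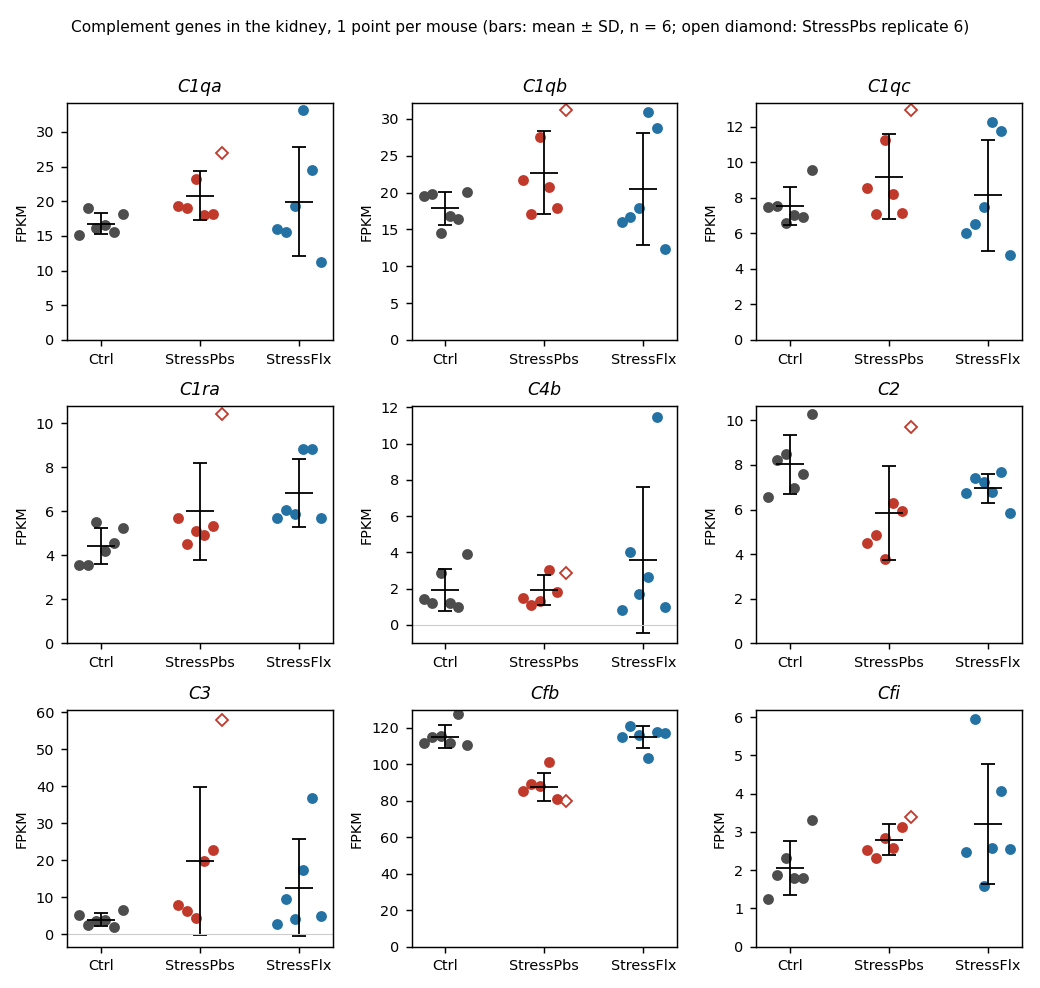
FPKM of the 9 complement genes in each mouse by group, on linear axes. Points are mice, horizontal bars and error bars are mean ± SD (n = 6 per group), and the open diamond is PBS replicate 6. Every PBS mouse sits below every Ctrl and FLX mouse for Cfb, every FLX mouse sits above every Ctrl mouse for C1ra, and C3 reaches 57.7 FPKM in PBS and 36.9 FPKM in FLX against at most 6.52 in Ctrl.

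The comparison of PBS with Ctrl asks how CSDS changes the kidney. Of the 9 complement genes, Cfb fell and none rose at an adjusted p under 0.05 with edgeR's quasi-likelihood test, where 4.24% of all 19946 genes tested were called in either direction, 2.42% higher and 1.82% lower. DESeq2 called C3 as well, and limma on log2(FPKM + 0.1) called Cfb alone. At the threshold stated in the study's methods, an absolute log2 fold change over 1 and an unadjusted p under 0.05, C3 was higher, against 2.13% of all genes. The median log2 fold change of the 9 genes was 0.30, with 7 above 0, beside a median of -0.00 over all genes tested, of which 49.8% lay above 0. Without PBS replicate 6, 2 of the 9 genes were called, Cfb and C2, both lower, against 3.79% of all genes in either direction.

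Cfb encodes factor B, whose Bb fragment is the catalytic part of the alternative pathway C3 convertase. It was measured at 110 FPKM in the lowest Ctrl mouse, 113 at the median and 128 in the highest. In PBS mice it was at 79.6, 86.9 and 101 FPKM, and in FLX mice at 103, 117 and 121 FPKM. The 6 PBS mice were thus the 6 lowest of the 18, and FLX mice lay within the Ctrl range except FLX replicate 4, which lay below it. The means were 115 ± 6.34 FPKM in Ctrl, 87.4 ± 7.74 in PBS and 115 ± 6.05 in FLX (SD, n = 6 each). In PBS versus Ctrl the log2 fold change was -0.40 (SE 0.09, adjusted p = 0.0172 from edgeR), and the exact two-sided permutation test on log2(FPKM + 0.1) gave p = 0.00216, the smallest that 6 against 6 mice allow. It was 1 of the 1.4% of genes whose PBS mice all lay below all Ctrl mice. Lower expression in bulk tissue may stand for fewer cells of a type or for less RNA per cell, which cannot be told apart here.

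The drop in Cfb held its size when mice were left out, while its call did not always hold. Without PBS replicate 6 it was -0.37 (adjusted p = 0.0252), and over the 18 fits that left out 1 mouse each it lay between -0.47 and -0.36 with adjusted p at most 0.0495. Without the 6 mice rich in Adipoq it was -0.39 with an adjusted p of 0.245 from 4 mice per group, and in a fit of Ctrl and PBS alone it was -0.39 (adjusted p = 0.0602).

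All 6 FLX mice lay above all 6 PBS mice for Cfb in FPKM, an arrangement seen for 1.74% of genes (exact permutation p = 0.00216). On counts the difference was smaller and did not pass, with a log2 fold change of 0.31 (SE 0.09, adjusted p = 0.122 from edgeR). DESeq2 and limma did call it, with adjusted p of 0.0300 and 0.0151. Both limma and the permutation test used FPKM, where limma's median log2 fold change over all genes tested was 0.07. There limma called 197 genes higher and 59 lower. With edgeR on counts the median was -0.01, with 44 higher and 63 lower. After TMM scaling the groups overlapped, since FLX replicate 4 had 306 CPM and PBS replicate 4 had 358. Against Ctrl, FLX mice differed by a log2 fold change of -0.09 (95% confidence interval -0.27 to 0.10, adjusted p = 0.659). The comparisons share the PBS mice, and a low PBS group alone places Ctrl and FLX on the same side.

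C2, the classical and lectin pathway counterpart of factor B, is the neighbour of Cfb on the same strand, 85 bases away. It was at 6.58, 7.91 and 10.3 FPKM in the lowest, median and highest Ctrl mouse. The same values in PBS were 3.79, 5.39 and 9.72 FPKM, and in FLX mice at 5.83, 7.01 and 7.68 FPKM. Of the 6 PBS mice, 5 lay below every Ctrl mouse, and the sixth, PBS replicate 6, lay second only to Ctrl replicate 6 among all mice. With all mice the log2 fold change in PBS versus Ctrl was -0.46 (SE 0.17, adjusted p = 0.130, exact permutation p = 0.0455), and without PBS replicate 6 it was -0.65 (SE 0.14, adjusted p = 0.0107). FLX versus PBS gave 0.17 (adjusted p = 0.757) with all mice and 0.36 (adjusted p = 0.280) without PBS replicate 6, and FLX versus Ctrl gave -0.29 (adjusted p = 0.387).

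The ratio of Cfb to C2 varied most in PBS mice. It was 10.7 to 17.0 in Ctrl and 15.2 to 20.1 in FLX, and in PBS it ran from 8.19 in replicate 6 to 23.3. Zbtb12, at 1.40 FPKM on average, lies inside C2 on the opposite strand for 17385 bases. The use of strand in the counting is not stated, so reads of C2 and Zbtb12 may be mixed.

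C3, the protein on which all pathways meet, was the most variable of the 9 genes. In Ctrl mice it was at 5.12, 2.43, 3.55, 3.69, 1.95 and 6.52 FPKM from replicate 1 to 6. PBS mice stood at 7.97, 6.28, 4.43, 19.7, 22.8 and 57.7 FPKM, and in FLX mice at 2.69, 9.41, 4.0, 17.3, 36.9 and 4.90 FPKM. Above every Ctrl mouse lay 4 of 6 PBS mice and 3 of 6 FLX mice, while the remaining PBS and FLX mice fell inside the Ctrl range. The means were 3.88 ± 1.70 FPKM in Ctrl, 19.8 ± 20.0 in PBS and 12.5 ± 13.1 in FLX (SD, n = 6 each), so that the spread within both stressed groups was as large as their means.

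In PBS versus Ctrl, C3 had a log2 fold change of 2.34 (SE 0.71, 95% confidence interval 0.83 to 3.85, adjusted p = 0.0772 from edgeR). The exact permutation test gave p = 0.0108. The adjusted p was 0.00824 with DESeq2, 0.0479 without PBS replicate 3 and 0.0485 without FLX replicate 5, whereas without PBS replicate 6 the log2 fold change was 1.67 (adjusted p = 0.186). In FLX versus Ctrl it was 1.59 (SE 0.69, adjusted p = 0.247, exact permutation p = 0.0823), which became 0.88 (adjusted p = 0.566) without FLX replicate 5. In FLX versus PBS it was -0.75 (95% confidence interval -2.19 to 0.69, adjusted p = 0.734) with all mice and -0.09 (adjusted p = 0.986) without PBS replicate 6.

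Different mice with high C3 carried different companions. PBS replicate 6 had 57.7 FPKM of C3 with 0.963 FPKM of Adipoq and the highest Lcn2. PBS replicate 5 and FLX replicate 5 had 22.8 and 36.9 FPKM of C3 with 87.4 and 103 FPKM of Adipoq. Their Lcn2 was 2.58 and 0.865 FPKM, the former above and the latter inside the Ctrl range of 0.474 to 1.82. PBS replicate 4 and FLX replicate 4 had 19.7 and 17.3 FPKM of C3 with 9.23 and 2.02 FPKM of Adipoq and 3.08 and 6.37 FPKM of Lcn2, the latter second only to PBS replicate 6. The 7 fat markers summed to 11.1 to 113 FPKM in Ctrl, 21.4 to 848 in PBS and 22.7 to 610 in FLX mice, and none of the 7 was at 0 in most mice. Without the 6 mice rich in Adipoq the log2 fold change of C3 in PBS versus Ctrl was 2.92 (adjusted p = 0.184, 4 mice per group), as large as with them, and 1.86 (adjusted p = 0.360) when PBS replicate 6 was left out too.

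**Figure D2:**
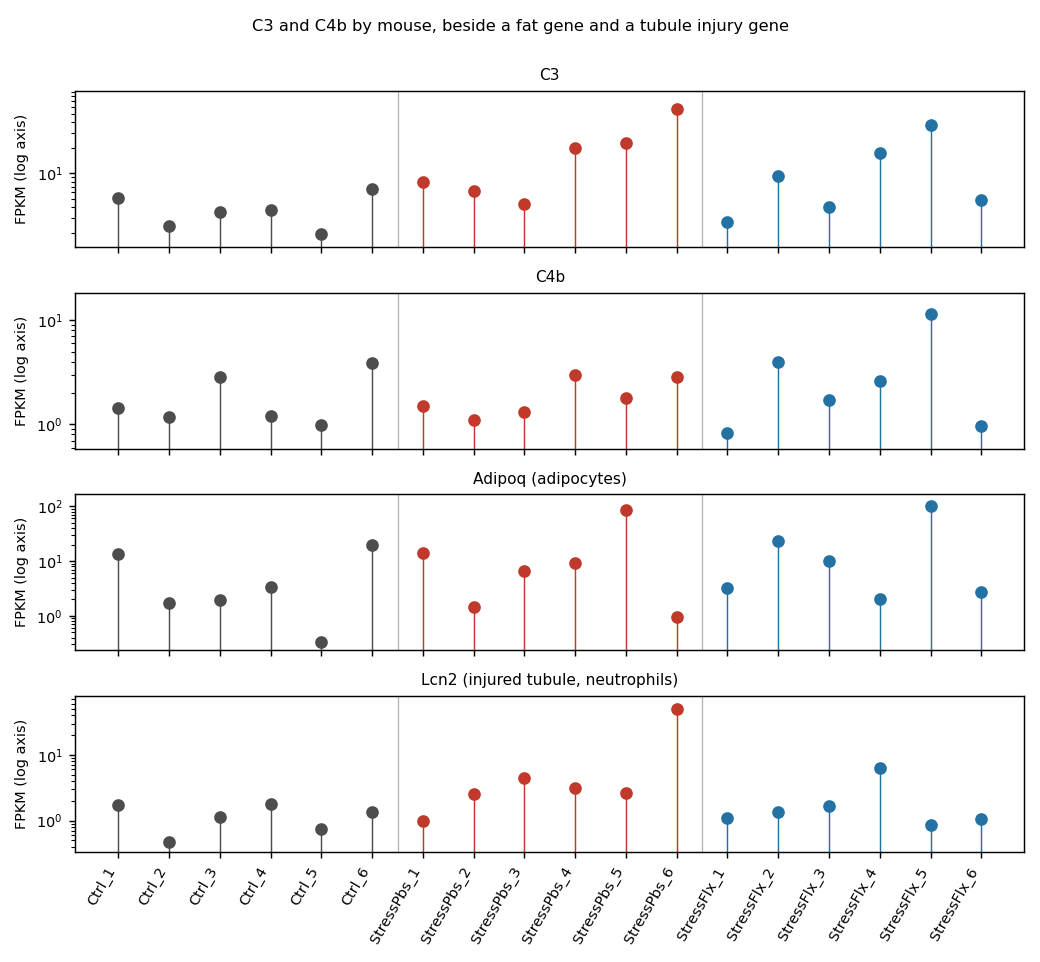
FPKM of C3, C4b, the adipocyte gene Adipoq and the injury gene Lcn2 in each of the 18 mice, on log axes, with 1 point per mouse. PBS replicate 6 has the highest C3 (57.7) and Lcn2 (49.2) with 0.963 FPKM of Adipoq, and FLX replicate 5 has the highest C4b (11.5) and Adipoq (103).

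The promoter of C3 is shown because this gene had the largest fold change of the 9 in PBS versus Ctrl, although it did not pass there, and because genes of C/EBP factors, which bind acute phase promoters, were among those that rose. The stretch is the 250 bases before the RefSeq start of C3, which is also the gene start in the deposited table (minus strand, chr17:57228137-57228386, GRCm38.p6), and capitals mark the only match to the motifs searched.
C3: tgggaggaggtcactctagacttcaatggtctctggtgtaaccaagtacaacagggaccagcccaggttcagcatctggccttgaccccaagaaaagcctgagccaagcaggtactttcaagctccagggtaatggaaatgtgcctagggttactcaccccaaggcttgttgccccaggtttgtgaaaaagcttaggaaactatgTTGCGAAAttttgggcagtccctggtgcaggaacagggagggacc
The match, TTGCGAAA, begins 45 bases before the start and has the form TTGCNNAA of a C/EBP motif, which was added to the search after this sequence had been read. It occurs on either strand in 9.56% of 32851 promoter windows of this length. TTCNNNGAA (STAT type, in 7.02% of windows), an interferon type motif (2.98%) and an NF-kB type motif (1.41%) were not found in it. Cebpb went from 7.92 to 12.9 FPKM in Ctrl mice to 19.7 to 39.9 in PBS mice (log2 fold change 1.39, adjusted p = 7.6e-05) and was at 14.8 to 18.7 in FLX mice (FLX versus PBS -0.91, adjusted p = 0.0108). Cebpd rose by 2.11 in PBS versus Ctrl (adjusted p = 0.00419) and fell from PBS to FLX (log2 -1.68, adjusted p = 0.0410). No relation of these factors to C3 was tested.

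C1qa, C1qb and C1qc encode the A, B and C chains that assemble into C1q, the recognition unit of the classical pathway. C1qa was at 15.1, 16.3 and 19.1 FPKM in the lowest, median and highest Ctrl mouse. PBS mice gave 18, 19.2 and 27 FPKM, and in FLX mice at 11.2, 17.6 and 33.1 FPKM. The groups overlapped, with 4 PBS mice and 3 FLX mice above every Ctrl mouse and FLX replicate 6 below them all. C1qb and C1qc had the same high mice, PBS replicates 3 and 6 and FLX replicates 4 and 5, and FLX replicate 6 was the lowest of all mice for each of the 3 genes. FLX mice varied most, with coefficients of variation of 37.0% to 39.2%, against 9.25% to 14.2% in Ctrl.

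None of the C1q chains passed in any comparison with edgeR, DESeq2 or limma. In PBS versus Ctrl the log2 fold changes were 0.30 for C1qa, 0.33 for C1qb and 0.28 for C1qc, with standard errors of 0.17, 0.19 and 0.20 and adjusted p of 0.356, 0.350 and 0.465. The exact permutation test for C1qa gave p = 0.0173, for C1qb 0.0823 and for C1qc 0.156. The 95% confidence intervals reached at most 0.73. FLX versus PBS gave -0.15, -0.24 and -0.27 (adjusted p 0.663 to 0.808), and FLX versus Ctrl gave 0.15, 0.09 and 0.01 (adjusted p 0.696 to 0.983).

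C1qb and C1qc kept nearly fixed proportions from mouse to mouse, and C1qa followed them less closely. In Ctrl mice alone C1qa was 0.771 to 1.11 of C1qb, while the highest mouse exceeded the lowest 1.26 times for C1qa and 1.38 times for C1qb. C1qc was 0.376 to 0.478 of C1qb in FPKM, with medians of 0.418 in Ctrl, 0.404 in PBS and 0.393 in FLX, and C1qa was 0.771 to 1.12 of C1qb. Over 18 mice on log2(FPKM + 0.1), C1qb and C1qc had Pearson's r = 0.97 and Spearman's rho = 0.98 (permutation p = 1e-05 for each, the smallest that 100000 resamples give, adjusted p = 0.00012 and 0.00036 over the 36 pairs of the 9 genes). Without the 2 mice farthest from the median r was 0.96, and within groups r was 0.75 in Ctrl, 0.996 in PBS and 0.996 in FLX. C1qa and C1qb had r = 0.92 (permutation p = 1e-05, adjusted p = 0.00012) and rho = 0.83 (permutation p = 9e-05, adjusted p = 0.00108), with r = 0.89 without the 2 farthest mice. Its value within Ctrl mice was 0.47, against 0.91 in PBS and 0.97 in FLX. The 3 genes were measured in the same libraries, whose depth and makeup they share.

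**Figure D3:**
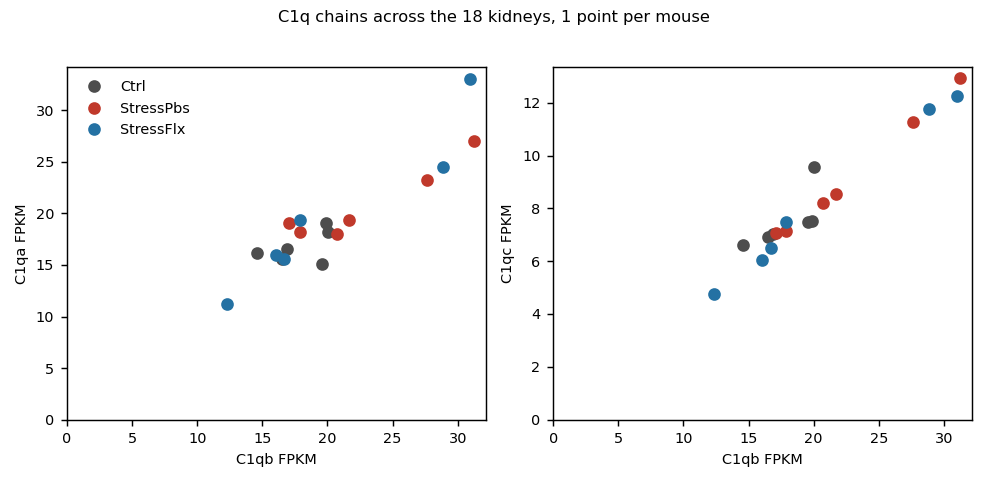
FPKM of C1qa and of C1qc against C1qb, with 1 point per mouse coloured by group, on linear axes from 0. Points of the 3 groups follow a common line more closely for C1qc, at 0.376 to 0.478 of C1qb, than for C1qa, at 0.771 to 1.12. The highest mice belong to PBS and FLX.

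Stretches before the starts of C1qb and C1qc are shown as those of genes that varied together. For C1qb these are 250 bases before the RefSeq start (minus strand, chr4:136886201-136886450), which lies 13 bases upstream of the start in the deposited table. For C1qc, whose RefSeq start lies 151 bases inside the deposited gene, they are the 99 bases before the deposited start (minus strand, chr4:136893066-136893164). Capitals mark the only match found.
C1qb: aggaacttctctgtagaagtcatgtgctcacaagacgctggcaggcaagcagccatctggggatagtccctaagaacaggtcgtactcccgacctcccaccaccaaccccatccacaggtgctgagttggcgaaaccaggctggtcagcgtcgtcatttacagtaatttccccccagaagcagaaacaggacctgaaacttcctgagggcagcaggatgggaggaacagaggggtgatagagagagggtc
C1qc: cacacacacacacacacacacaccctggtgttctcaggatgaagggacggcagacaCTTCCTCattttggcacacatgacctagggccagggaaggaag
The match in C1qc is GAGGAAG on the other strand, the form of a PU.1 motif of myeloid genes, which was also added after the sequences had been read and occurs in 3.93% of windows of 99 bases. C1qb held none of the 5 motifs, although GAGGAAG is found in 10.6% of windows of 250 bases, so the stretches shared no searched motif.

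Markers of macrophages, a known source of C1q, gave no call either. Of 12 macrophage markers, 0 passed in PBS versus Ctrl with edgeR (4 at an unadjusted p under 0.05, 1 by DESeq2 and 0 by limma) and 0 in FLX versus PBS (3, 1 and 0) or FLX versus Ctrl (2, 1 and 0). Their sum was 59.3 to 81.8 FPKM in Ctrl mice, 56.6 to 99.8 in PBS and 53.8 to 151 in FLX, and none was at 0 in most mice. The sum was highest in FLX replicate 4 and lowest in FLX replicate 6, the highest and lowest mouse for C1qa. Of the 12 markers, all but Csf1r were higher in the former than in the latter. Lyz2 was at 72 FPKM in the former and 12.04 in the latter, whereas Csf1r was at 9.97 and 10.03 FPKM. Both genes were named after their values were seen. The part of macrophages in the C1q levels was not tested.

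C1ra encodes C1r, the protease that C1q switches on. It was at 3.55, 4.39 and 5.49 FPKM in the lowest, median and highest Ctrl mouse. The PBS values were 4.51, 5.23 and 10.4 FPKM, and in FLX mice at 5.70, 5.97 and 8.85 FPKM. All 6 FLX mice lay above all 6 Ctrl mice, as in 2.7% of genes, and PBS mice overlapped with both groups. In FLX versus Ctrl the log2 fold change was 0.53 (SE 0.18, adjusted p = 0.121 from edgeR) and the exact permutation test gave p = 0.00216. The adjusted p was 0.0255 without PBS replicate 6 and 0.0430 in a fit of Ctrl and FLX alone. The fold changes were 0.53 and 0.54, since the PBS group enters this comparison only through the shared estimate of spread. These were the only 2 of 31 alternatives with an adjusted p under 0.05, and neither DESeq2 nor limma called C1ra. With FLX replicates 3 to 6 left out the adjusted p was 0.797. PBS versus Ctrl gave 0.43 (adjusted p = 0.176) with all mice and 0.22 (adjusted p = 0.425) without PBS replicate 6.

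C4b, whose product C4 is cut by C1s and joins C2 in the classical convertase, had the same mean, 1.93 FPKM, in Ctrl and PBS mice. It was at 0.986, 1.31 and 3.89 FPKM in the lowest, median and highest Ctrl mouse. For PBS these were 1.10, 1.64 and 3.0 FPKM, and in FLX mice at 0.835, 2.17 and 11.5 FPKM. FLX mice held both the lowest and the highest value of the 18. PBS versus Ctrl had a log2 fold change of 0.02 (SE 0.57, adjusted p = 0.990), an interval of -1.18 to 1.22. It was 0.80 in FLX versus PBS and 0.82 in FLX versus Ctrl (adjusted p = 0.645 and 0.479), and -0.01 and 0.01 without FLX replicate 5, the mouse with the most Adipoq. The highest Ctrl mouse, replicate 6, had the most Adipoq of its group, 19.9 FPKM. This did not hold in PBS mice. PBS replicate 5, with the most Adipoq (87.4 FPKM), had 1.79 FPKM of C4b. PBS replicates 4 and 6 had more C4b, 3.00 and 2.88 FPKM, with 9.23 and 0.963 FPKM of Adipoq.

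C3 and C4b were high in the same mice within groups. Over the 18 mice Pearson's r was 0.68 (permutation p = 0.00176, adjusted p = 0.0127) and Spearman's rho 0.71 (permutation p = 0.00146, adjusted p = 0.0105), and r was 0.57 without the 2 mice farthest from the median. Within groups r was 0.71 in Ctrl, 0.85 in PBS and 0.91 in FLX. This was not particular to the pair. C3 and C1ra had r = 0.72 (permutation test, adjusted p = 0.00675) and rho = 0.54 (adjusted p = 0.069). C3 and Cfi had r = 0.57 (adjusted p = 0.0342) and rho = 0.74 (adjusted p = 0.00621). By contrast, r was 0.12 for C3 and C2 and -0.53 for C3 and Cfb. Both C4b and C1ra have near-identical copies, C4a and C1rb, listed at 0.0677 to 0.304 and 0.242 to 1.42 FPKM, and reads that fit both copies could have been split between them.

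Cfi, the protease that inactivates C3b and C4b, was at 1.25, 1.84 and 3.31 FPKM in the lowest, median and highest Ctrl mouse. In PBS mice it was at 2.33, 2.70 and 3.38 FPKM, and in FLX mice at 1.58, 2.57 and 5.96 FPKM. All groups overlapped, with Ctrl replicate 6 inside the PBS range and FLX replicate 3 inside the Ctrl range. PBS versus Ctrl gave a log2 fold change of 0.44 (SE 0.26, adjusted p = 0.367, exact permutation p = 0.0368, which became 0.0844 without PBS replicate 6). It was 0.12 in FLX versus PBS (adjusted p = 0.911) and 0.56 in FLX versus Ctrl (adjusted p = 0.264).

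**Figure D4:**
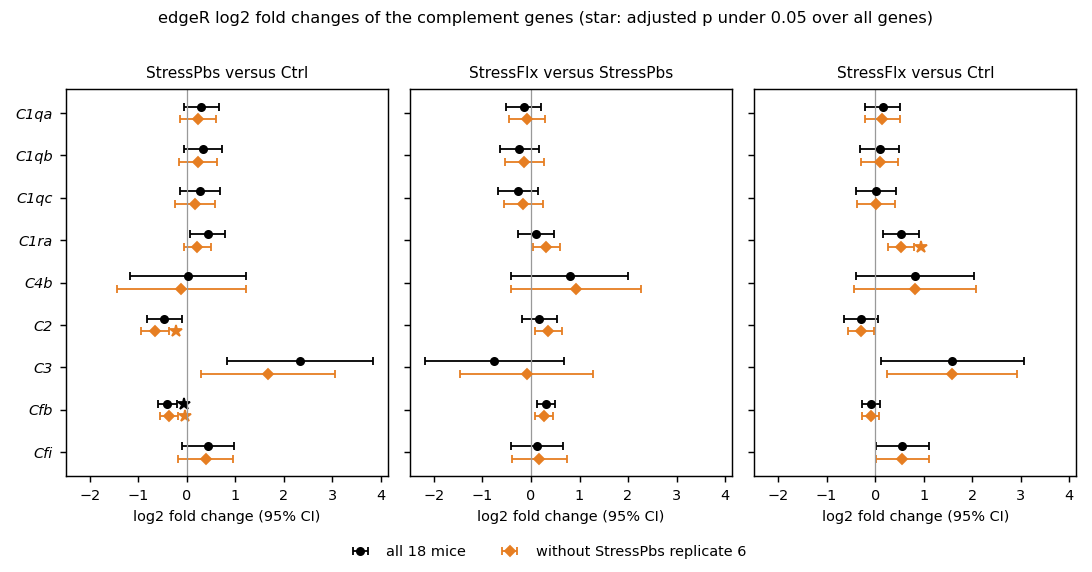
Log2 fold changes of the 9 complement genes from edgeR in the 3 comparisons, with 95% confidence intervals, for all 18 mice (circles) and without PBS replicate 6 (diamonds). Stars mark an adjusted p under 0.05 over all genes tested. Cfb is starred in PBS versus Ctrl in both fits, C2 there and C1ra in FLX versus Ctrl only without PBS replicate 6, and the intervals of C3 and C4b are the widest.

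In FLX versus PBS, which asks how fluoxetine changes the defeated kidney, edgeR called 0 of the 9 genes, with 1 at an unadjusted p under 0.05 (Cfb) and 1 called by DESeq2 and by limma (Cfb again), where 0.536% of all genes were called in either direction. At the study's threshold 0 of 9 passed, against 2.22% of all genes. The median log2 fold change of the 9 genes was 0.10, with 5 above 0, and 0.17 without PBS replicate 6. In FLX versus Ctrl edgeR called 0 of the 9, with 3 at an unadjusted p under 0.05 (C3, C1ra and Cfi) and 0 called by DESeq2 and by limma, against 1.81% of all genes. C3 passed the study's threshold there, as did 1.06% of genes in the higher direction. Its passing rested on few mice, since none of the 9 passed without any 1 of Ctrl replicates 2 to 5 or FLX replicates 4 and 5. Without PBS replicate 6, edgeR called 1 of the 9, C1ra, where 3.79% of all genes were called. The median over all 9 was 0.15 with all mice, with 7 genes above 0.

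Complement genes beyond these 9 were described from lists of initiating, terminal, regulatory and receptor genes, 49 of which were in the table and 42 tested. In PBS versus Ctrl 5 were higher and 1 lower, beside 2.42% and 1.82% of all genes, and without PBS replicate 6, 3 of 43 tested were higher and 1 lower. Between FLX and PBS 0 were higher and 1 lower with and without this mouse, beside 0.536% of all genes in either direction with all mice, and in FLX versus Ctrl none was called with edgeR, 9 having an unadjusted p under 0.05 and 2 being called by DESeq2 (C1s1 and C5ar1), beside 1.81% of all genes.

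Among the regulators, 3 of 14 rose in PBS versus Ctrl and 0 fell. Clu, clusterin, which blocks the membrane attack complex and is also a marker of tubule injury, was at 53.6 to 79.2 FPKM in Ctrl mice. It reached 94.4 to 300 FPKM in PBS mice, above all Ctrl mice, and in FLX mice at 73.3 to 94.3 FPKM. From Ctrl to PBS it rose by 1.26 on the log2 scale (SE 0.20, adjusted p = 0.00225) and from PBS to FLX it fell by 0.97 (adjusted p = 0.0348), as the only one of these genes called there, and both calls held without PBS replicate 6 (adjusted p = 0.000362 and 0.0205). Serping1, the C1 inhibitor that blocks C1r and C1s, rose by 0.66 (adjusted p = 0.0409, and 0.0794 without PBS replicate 6). Cpn1, a carboxypeptidase N subunit that clips the anaphylatoxins, rose by 0.60 (adjusted p = 0.0350, and 0.0584 without PBS replicate 6).

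Of 5 terminal pathway genes tested, 1 rose and 1 fell in PBS versus Ctrl. C7, a membrane attack complex component, rose by 1.20 on the log2 scale (adjusted p = 0.0187), from 0.364 to 1.21 FPKM in Ctrl mice to 0.905 to 2.79 in PBS mice. C8g, the gamma chain of C8, fell by 0.69 (adjusted p = 0.0469), from 10.6 to 15.4 FPKM to 4.04 to 11.1. Hc, the gene of C5, was listed at 0 in most mice. Among 9 receptors tested, C5ar1, a receptor of C5a on myeloid cells, rose by 1.81 (adjusted p = 0.0230), from 0.0508 to 0.205 FPKM in Ctrl mice to 0.211 to 0.948 in PBS mice and 0.127 to 0.652 in FLX mice (FLX versus Ctrl 1.45, adjusted p = 0.0861).

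Of 14 other initiating genes 0 were called with edgeR in PBS versus Ctrl (3 at an unadjusted p under 0.05, 0 by DESeq2 and by limma). The 3 with the most FPKM were Cfd, C1s1 and C1rl. Cfd, factor D or adipsin, which cuts factor B and is made by adipocytes, ranged from 3.11 to 858 FPKM, and its highest mice, FLX replicate 5 and PBS replicate 5, were those with the most Adipoq. C1s1, the C1s protease that C1r activates, was at 6.43 to 8.39 FPKM in Ctrl, 7.67 to 14.3 in PBS and 7.95 to 17.1 in FLX mice. In FLX versus Ctrl its log2 fold change was 0.58 (adjusted p = 0.0635, and 0.0249 without PBS replicate 6), beside the 0.53 of its partner C1ra. C1rl had -0.38 in PBS versus Ctrl (adjusted p = 0.155).

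**Figure D5:**
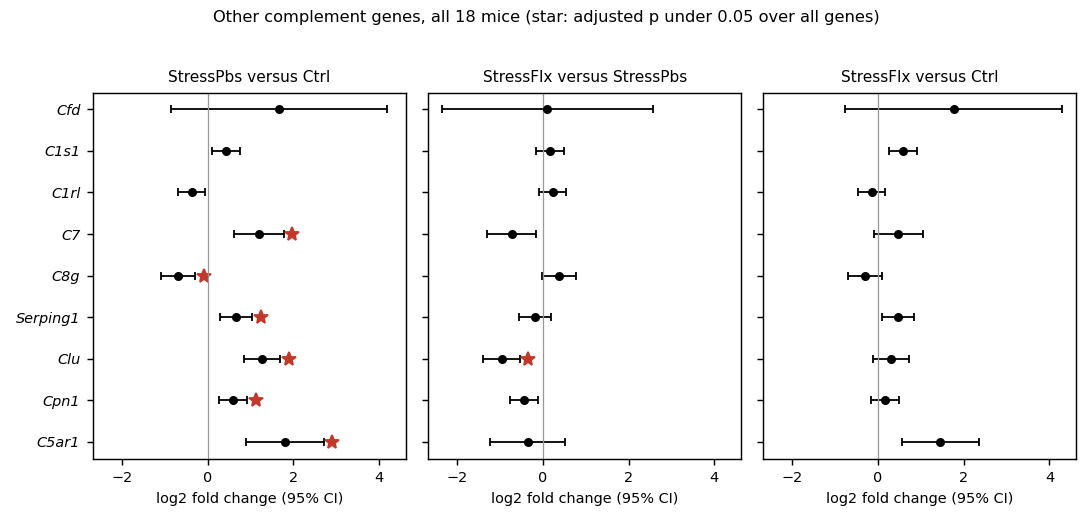
Log2 fold changes from edgeR, with 95% confidence intervals, of complement genes outside the 9 in the 3 comparisons over all 18 mice. Stars mark an adjusted p under 0.05 over all genes tested, reached in PBS versus Ctrl by C7, C8g, Serping1, Clu, Cpn1 and C5ar1 and in FLX versus PBS by Clu.

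Markers of other cells and of inflammation moved in the PBS group beside these genes. The counts of called genes that follow stand beside 2.42% of all genes higher and 1.82% lower in PBS versus Ctrl with all mice. Of 8 neutrophil markers tested 4 were higher in PBS versus Ctrl, and 3 without PBS replicate 6. Their sum was 1.56 to 3.56 FPKM in Ctrl, 7.4 to 67.2 in PBS and 0.514 to 5.92 in FLX mice. It was highest in PBS replicate 6, and Ly6g, Ngp and Camp were at 0 in at least 9 mice. S100a8, a neutrophil gene, rose by 3.74 on the log2 scale (adjusted p = 0.0144) and fell by 3.93 from PBS to FLX (adjusted p = 0.0348). Of 8 tubule injury markers 3 were higher with and without PBS replicate 6, Cp, Clu and Spp1. Of 12 acute phase and cytokine genes 5 were higher, all regulators (Cebpb, Cebpd, Nfkbia, Socs3 and Stat3), and 4 without PBS replicate 6. No gene of an acute phase protein or cytokine was called there by edgeR. DESeq2 also called Saa1 and Saa3 higher and Il1b lower, which gave 7 genes higher and 1 lower. Saa1 was at 0 FPKM in every Ctrl mouse. It was at most 0.0929 in PBS mice other than replicate 6, which had 0.879. None of 14 interferon response genes was called in PBS versus Ctrl with edgeR (4 at an unadjusted p under 0.05, 1 lower by DESeq2 and 0 by limma), and their median log2 fold change was -0.38. Their sum was 156 FPKM in Ctrl replicate 6, the highest of all mice, against a Ctrl median of 50.9 FPKM, and the fold change without this mouse is not given here. Fibroblast markers summed to 19.3 to 29.9 FPKM in Ctrl, 23.8 to 59.8 in PBS and 24.2 to 58.4 in FLX mice. The part of these cells in the complement levels was not tested.

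The genes outside the 9 whose pattern over the 18 mice was most like that of C3 on log2(FPKM + 0.1), among 19946 genes tested, were F13a1, Vim, Gfpt2, Serpina3n and Mmp19. Their Pearson's r lay between 0.90 and 0.94, and between 0.86 and 0.93 without PBS replicate 6. For C1qa they were Timp1, Ms4a6b, Cd86, Fcgr4 and Tmco4, with r between 0.81 and 0.84 with all mice and between 0.77 and 0.83 without PBS replicate 6. These values are descriptions, since genes of the same libraries share depth and makeup.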

How the data were processed

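Per the study's methods and the labels, poly(A) RNA of 18 kidneys was sequenced in read pairs from libraries with a strand-marking step. The authors aligned the reads to GRCm38 and used StringTie to deposit an FPKM value per gene and mouse. The study's methods name fastp and HISAT-3N, and the submitters' processing notes name cutadapt 1.9, HISAT2 2.0.4, StringTie 1.3.4d and UMI-tools. The deposited counts were taken as estimated counts: all are whole, yet 4 counts were held by more genes (median over mice 720) than 3 counts (484.5) or 5 counts (268). No source used here states the tool behind them. All 9 genes had the coordinates of GENCODE M21.

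Counts were tested with edgeR 4.0.16 (quasi-likelihood, TMM scaling, filterByExpr, robust), in 1 model of 3 groups over all 18 mice, with Benjamini-Hochberg adjustment over 19946 genes. Calls mean an adjusted p under 0.05. Exact two-sided permutation tests used log2(FPKM + 0.1), where fold changes of low genes are understated. DESeq2 1.42.0, limma 3.58.1 on log2(FPKM + 0.1), other scalings, no filter, a replicate block and leaving out mice were alternatives. The scripts were checked on simulated data. The labels do not describe how mice were caged or processed together, so p-values measure the spread between these mice.

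The 9 genes and all lists were chosen with earlier results of these data known. Named are all 9 genes, in other lists the called genes or else those with the most FPKM, and the 5 genes most like C3 and C1qa. At most 4 genes were named per marker list, while all called acute phase and cytokine genes were named in PBS versus Ctrl. Adipoq and Lcn2 were named, and the fits without mice over 10 FPKM of Adipoq chosen, after their values were seen. Promoters are from RefSeq (GRCm38.p6), matched for 4 of the 9 genes.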

Additional observations from a re-analysis of the deposited data

Results flagged for a closer look

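Dixon's test for a mouse far from its group was applied to 27 sets of 6 mice, the 9 genes in 3 groups, and picked out 4, where chance gives about 1 in 20. C1ra in PBS replicate 6 was at 10.4 FPKM, with 5.71 in the next mouse. C1ra in FLX versus Ctrl had an adjusted p of 0.121 from edgeR with this mouse and 0.0255 without it. That change was not particular to C1ra, since calls over all genes there went from 361 to 768. C1qc in Ctrl replicate 6 was at 9.58 FPKM, with 7.53 in the next mouse. Cfb in Ctrl replicate 5 was at 128 FPKM, with 115 in the next mouse, and Cfb in FLX replicate 4 was at 103 FPKM, below 115 in the next mouse.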

How the results depend on the processing

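Of the fold changes of the 9 genes recomputed under alternatives, 788 kept their direction and their side of the threshold, and 34 changed sign, none of them past the threshold before or after. The number of the 9 genes called in PBS versus Ctrl (1 with all mice, Cfb) was 2 with DESeq2, 0 in a fit of the 2 groups compared, 0 without the 6 mice rich in Adipoq and 0 when PBS replicate 6 was left out as well, and 1 to 2 when each mouse was left out. Cfb itself was called in 27 of 31 alternatives, and lost its call in those 3 settings and when FLX replicates 3 to 6 and PBS replicate 6 were left out together (-0.36, adjusted p = 0.0514), where C2 was called instead (-0.64, adjusted p = 0.0241). In FLX versus PBS the number called was 1 with DESeq2 and 1 with limma at each of 3 pseudocounts. In FLX versus Ctrl it was 1 in a fit of the 2 groups and 0 to 1 when each mouse was left out. At the study's threshold C3 passed in FLX versus Ctrl, and 0 genes did with limma, with the replicate block and in both fits without mice rich in Adipoq, and 0 to 1 when each mouse was left out. In FLX versus PBS 0 to 1 passed when each mouse was left out, C3 doing so without FLX replicate 5 (log2 fold change -1.46).

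C4b in PBS versus Ctrl (0.02) was -0.035 with upper-quartile scaling, -0.014 with the replicate block, -0.10 when FLX replicates 3 to 6 and PBS replicate 6 were left out, and -0.18 to 0.35 when each mouse was left out, and its exact permutation p without PBS replicate 6 was 0.929. In FLX versus PBS, C1ra was -0.059 when FLX replicates 3 to 6, the shallower libraries, were left out and -0.024 without the mice rich in Adipoq. Cfi was -0.37 without those mice, -0.28 without PBS replicate 6 too, and -0.17 to 0.26 when each mouse was left out. C4b was -0.55, -0.39 and -0.012 to 1.004 in the same settings, and in FLX versus Ctrl it was -0.11 in both fits without the mice rich in Adipoq. In FLX versus Ctrl without FLX replicates 3 to 6, with or without PBS replicate 6, C1qa was -0.12, C1qb -0.16 and C1qc -0.30, and when each mouse was left out they were -0.023 to 0.27, -0.037 to 0.21 and -0.12 to 0.13. C1qc was also -0.017 with upper-quartile scaling and -0.0027 with the replicate block. The cause of these changes was not tested.

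Mice with the same replicate number did not deviate together (correlations of -0.229 to 0.231, and 1 of 6 mice correlated best with its own number in each comparison), so the numbers pair no mice. With the number as a block, calls over all genes in PBS versus Ctrl went from 482 higher and 363 lower to 302 and 247, in FLX versus PBS from 44 and 63 to 17 and 36, and in FLX versus Ctrl from 203 and 158 to 57 and 52. Cfb in PBS versus Ctrl then had an adjusted p of 0.0490. The settings without mice rich in Adipoq were chosen after seeing the data.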
